A study of Homo sapiens with 9 samples.

Results

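The genes examined here belong to the integrated stress response, a pathway that cells use to slow general protein synthesis while making selected proteins. Ribosome footprints, pieces of mRNA shielded from nuclease by the ribosome reading them, were counted for 10 of its genes among the 19569 genes of the deposited table. They are ATF4 (ENSG00000128272), DDIT3 (ENSG00000175197), CHAC1 (ENSG00000128965), TRIB3 (ENSG00000101255), ASNS (ENSG00000070669), SESN2 (ENSG00000130766), STC2 (ENSG00000113739), ATF5 (ENSG00000169136), PPP1R15A (ENSG00000087074) and DDIT4 (ENSG00000168209). These 10 genes were chosen by name as part of the ATF4 pathway, with earlier results of the same libraries known, and which values weighed in the choice is not recorded. All values of the 10 genes are therefore given as descriptions, with no p-value. Where a gene is said to be called, the threshold defined below is part of that description and not a test of these genes.

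All 9 libraries came from Jurkat clone E6-1, a single clone of a human T lymphoblast line derived from leukaemic cells and much used for signalling through the T cell receptor. There were 3 libraries per group: resting cells that were not activated, cells after 5 h of activation and cells after 12 h. Activated cells were cultured on plates coated with anti-CD3 antibody at 10 µg/mL, with anti-CD28 antibody at 5 µg/mL in the medium. No group was kept unactivated for 5 h or 12 h, so effects of activation and of time in culture cannot be told apart. The labels describe no gene edit or drug in any group. The samples are titled RIBOseq, while the library protocol given with them describes mRNA libraries made from total RNA and no footprinting step, so the values are called footprints from the sample titles, the design text and the names of the deposited tables. Totals ran from 4343515 to 18506509 counts per library, with the shallowest being 12 h replicate 2 and the deepest 5 h replicate 3. Per the labels the libraries are biological replicates. The files pair no other gene ID with a name, so markers of T cells or of other cell types were not analysed here.

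As background, stress kinases phosphorylate the initiation factor eIF2, which lowers initiation on most mRNAs. The mRNA of the transcription factor ATF4 carries short upstream reading frames that let its main frame be translated better in that state. ATF4 then binds, often with C/EBP partners, to genes for amino acid synthesis, redox balance, signalling and feedback. DDIT3, which encodes the transcription factor CHOP, ATF5 and PPP1R15A are also known to have upstream reading frames that respond to eIF2 phosphorylation. The deposited table holds 1 count per gene, so footprints on an upstream frame and on the main frame cannot be told apart here. A footprint count also joins the amount of mRNA and its translation, and fewer cells of a kind and less RNA per cell cannot be told apart in such bulk libraries.

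The promoters of 4 of these genes are shown because each holds a match to a factor site named in work on stress or T cell signalling. ATF5 also holds such a match and is not printed here. In these libraries DDIT3 and PPP1R15A were higher after activation, CHAC1 was lower and ASNS had no counts. Neither fold change of ATF5 over rest was called. The sequences are those of RefSeq on GRCh38.p14, from 250 bases before to 50 bases from the start site on, 5′ to 3′ along the gene, with the match in capitals. Table entries matched all 10 genes by symbol and gave 17 start sites.
DDIT3 chr12:57520465-57520764 (- strand): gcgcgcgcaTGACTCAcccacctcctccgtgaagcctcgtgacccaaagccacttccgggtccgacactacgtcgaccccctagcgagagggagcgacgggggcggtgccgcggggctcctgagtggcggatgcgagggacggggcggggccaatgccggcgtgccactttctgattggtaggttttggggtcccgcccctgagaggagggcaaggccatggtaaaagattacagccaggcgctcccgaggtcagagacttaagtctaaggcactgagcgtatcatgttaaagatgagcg
PPP1R15A chr19:48872171-48872470 (+ strand): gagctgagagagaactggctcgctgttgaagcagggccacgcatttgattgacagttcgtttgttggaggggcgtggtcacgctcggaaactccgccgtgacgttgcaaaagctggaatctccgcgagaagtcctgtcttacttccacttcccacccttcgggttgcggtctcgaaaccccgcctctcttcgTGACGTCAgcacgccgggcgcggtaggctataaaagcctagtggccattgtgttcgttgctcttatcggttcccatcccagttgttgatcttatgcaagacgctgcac
CHAC1 chr15:40953221-40953520 (+ strand): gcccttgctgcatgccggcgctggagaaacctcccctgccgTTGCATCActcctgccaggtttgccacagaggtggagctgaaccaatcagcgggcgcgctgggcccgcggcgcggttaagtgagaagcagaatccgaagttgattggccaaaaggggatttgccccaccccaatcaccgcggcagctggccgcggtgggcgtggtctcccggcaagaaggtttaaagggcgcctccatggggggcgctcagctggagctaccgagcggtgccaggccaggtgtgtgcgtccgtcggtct
ASNS chr7:97872359-97872658 (- strand): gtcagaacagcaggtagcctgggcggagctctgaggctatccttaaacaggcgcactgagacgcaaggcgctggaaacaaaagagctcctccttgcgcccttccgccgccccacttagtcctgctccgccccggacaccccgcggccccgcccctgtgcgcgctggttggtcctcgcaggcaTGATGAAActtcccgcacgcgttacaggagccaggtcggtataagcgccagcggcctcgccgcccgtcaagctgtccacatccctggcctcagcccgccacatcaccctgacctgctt
The spelling TGATGNAA, the core of the C/EBP-ATF response element through which ATF4 acts, was found for CHAC1 and ASNS. For CHAC1 it lay on the reverse strand 209 bases before the start. For ASNS it lay 68 bases before 1 of the 2 starts. Some window of 4.47% of the 27167 genes in the table held it. The cAMP response element TGACGTCA, a site of the CREB and ATF family, lay 58 bases before the start of PPP1R15A, and 2.23% of genes had it in some window. The AP-1 site TGANTCA lay 241 bases before the first start of DDIT3 and 188 bases before 1 of the 3 starts of ATF5, and 9.39% of genes had it. Both strands were searched, and no window of the 10 genes held more than 1 match, so none overlapped another. ATF4, TRIB3, SESN2, STC2 and DDIT4 had none of these letters in their windows. A match describes the letters only, and binding was not measured.

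**Figure D1:**
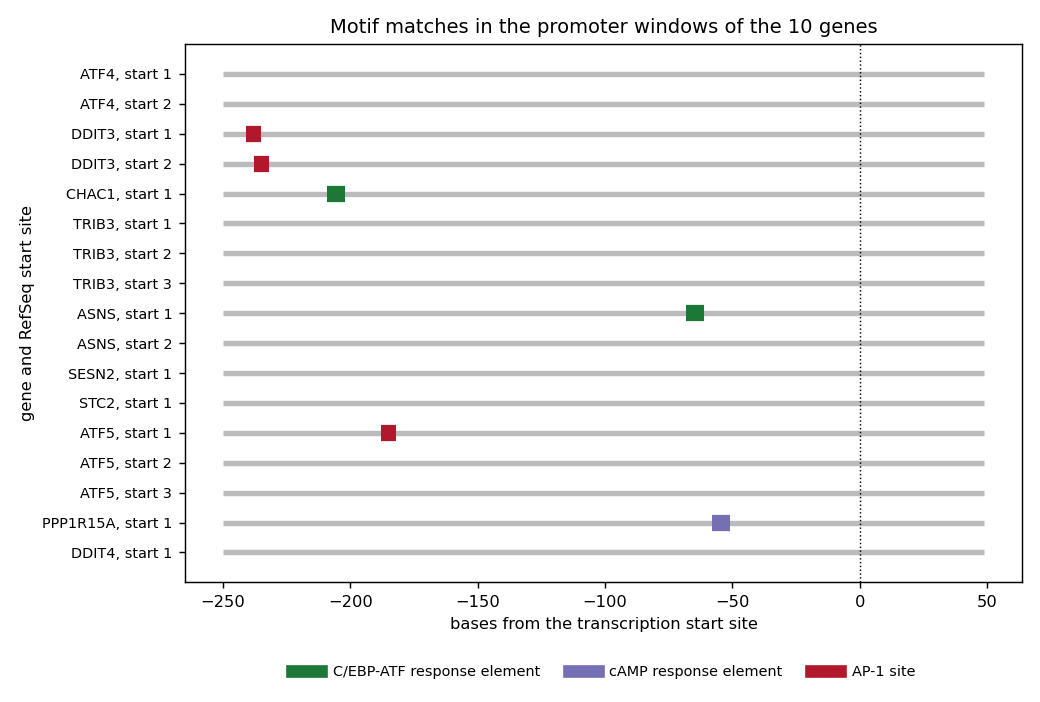
Position of each match to the 3 motifs, in bases from the transcription start site (dotted line), in the 17 RefSeq promoter windows (grey) of the 10 genes. Matches lie in windows of DDIT3, ATF5, PPP1R15A, CHAC1 and ASNS, and the other 5 genes have none.

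The 10 genes did not share 1 course. Relative to resting cells, DDIT3 and PPP1R15A were several-fold higher at 5 h and stayed higher at 12 h, whereas CHAC1, STC2 and SESN2 were several-fold lower at 5 h and partly back by 12 h. By group means, TRIB3 was highest at 12 h, ATF5 was highest at 5 h and ATF4 was lowest at 5 h and highest at 12 h. The 12 h libraries of ATF4 overlapped the resting ones, and ATF5 was not called against rest at either time. DDIT4 differed by at most 0.42 in log2 between any 2 groups, and ASNS had no count in any library. Levels are given as CPM (a gene's counts relative to the library's total, taken to a fixed library size). Totals were scaled by TMM factors, which assume that most genes keep their share of the library. The factors ran from 0.895 to 0.951 in resting libraries and from 0.997 to 1.06 in activated ones. They therefore raise resting levels relative to activated ones. Each log2 fold change is given with its standard error (SE), from 1 edgeR fit to the 13920 genes that passed a filter on low counts. Of the 10 genes, 9 passed it, and ASNS did not. A gene counts as called at an adjusted p under 0.05 in edgeR's quasi-likelihood test.

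**Figure D2:**
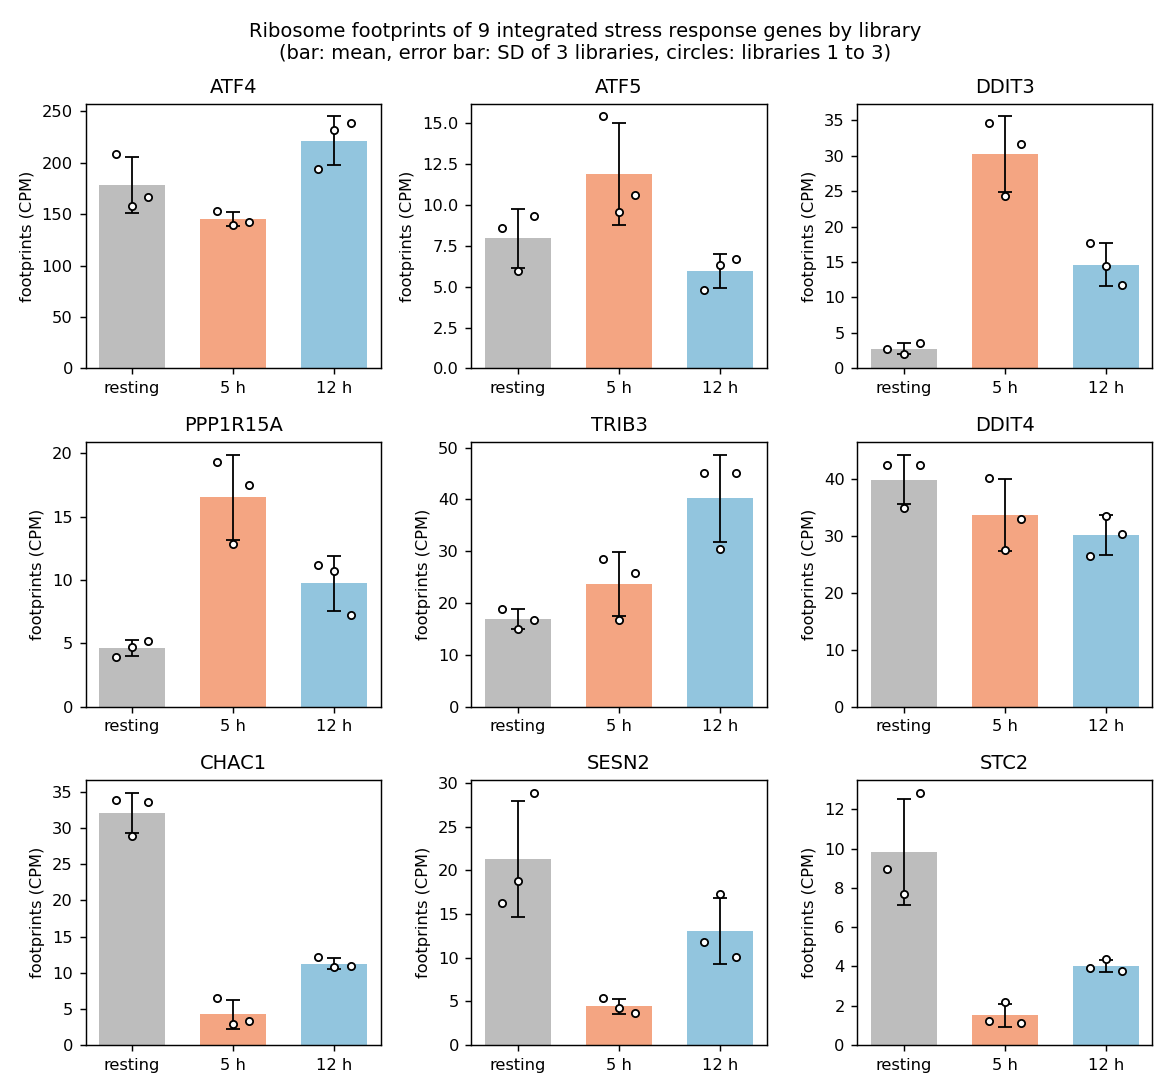
Footprints in CPM (vertical axes, from 0) of 9 genes in resting cells and after 5 h and 12 h of activation. Bars are means, error bars SD and circles the 3 libraries of each group. DDIT3 and PPP1R15A peak at 5 h, CHAC1, SESN2 and STC2 are lowest at 5 h, and TRIB3 is highest at 12 h.

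ATF4, the transcription factor at the centre of the response, stood at 209, 158 and 166 CPM in the resting libraries. It stood at 153, 139 and 143 CPM at 5 h and at 194, 231 and 238 CPM at 12 h. Every 5 h library lay below every resting one by a small margin. The 12 h libraries overlapped the resting ones through the high resting replicate 1. The margin at 5 h rests on the TMM factors. On unscaled totals, resting replicate 2 (1441 of 10171929 counts) lay below 5 h replicate 1 (1517 of 9492122). Means were 145 ± 7.04 CPM at 5 h and 178 ± 27.1 CPM at rest (SD, n = 3 each), a log2 fold change of -0.30 ± 0.11 (SE). At 12 h the mean was 221 ± 23.9 CPM, and the log2 fold change over resting was 0.31 ± 0.11. Both of these differences were small and passed the threshold, but neither call held throughout. The 5 h call was lost without resting replicate 1 (-0.17), 5 h replicate 2 (-0.27) or 5 h replicate 3 (-0.32), with upper quartile scaling (-0.28) and with a filter of at least 50 counts in 3 libraries (-0.25). The 12 h call was lost without resting replicate 2 (0.22), resting replicate 3 (0.26), 12 h replicate 2 (0.27) or 12 h replicate 3 (0.24). The levels at 12 h and 5 h were set further apart, with no overlap between their libraries and a log2 fold change of 0.61 ± 0.11.

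ATF5, a transcription factor related to ATF4 and known for inducing mitochondrial chaperones, stood at 8.62, 5.93 and 9.32 CPM at rest. It stood at 15.4, 9.60 and 10.6 CPM at 5 h and at 4.79, 6.35 and 6.72 CPM at 12 h. The 5 h libraries were the highest 3 of the 9, and the 12 h libraries overlapped the resting ones. The mean was 11.9 ± 3.12 CPM at 5 h against 7.96 ± 1.79 CPM at rest, with a log2 fold change of 0.57 ± 0.26 that was not called. At 12 h it was 5.95 ± 1.02 CPM, and the log2 fold change over resting, -0.44 ± 0.28, was not called either. The difference between the times was larger, with a log2 fold change of -1.0 ± 0.28 for 12 h over 5 h. It was called, but not without 5 h replicate 1 (-0.78) or 12 h replicate 1 (-0.85). In the order of levels, resting and 12 h were neighbours whose libraries overlapped.

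DDIT3 encodes CHOP, a transcription factor induced through ATF4 that is linked to cell death under lasting stress and is known to raise PPP1R15A, CHAC1 and TRIB3. It stood at 2.68, 2.09 and 3.63 CPM at rest, at 34.7, 24.4 and 31.7 CPM at 5 h, and at 17.7, 14.5 and 11.7 CPM at 12 h. The 3 groups did not overlap, with every 5 h library above every 12 h library and every 12 h library above every resting one. The mean at 5 h, 30.3 ± 5.31 CPM, was 10.8 times the resting mean of 2.80 ± 0.776 CPM, and the log2 fold change was 3.42 ± 0.25. At 12 h the mean of 14.6 ± 3.01 CPM was 5.23 times the resting one, with a log2 fold change of 2.39 ± 0.25. DDIT3 fell by 1.04 ± 0.21 on the log2 scale at 12 h relative to 5 h. Resting libraries held 23, 19 and 35 counts of DDIT3. Their sum of 77 has an exact 95% Poisson interval from 60.8 to 96.2, which covers counting error only, since amplified fragments are not independent molecules. Among all genes tested, its log2 fold change over rest ranked 153 from the top at 5 h and 278 at 12 h.

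PPP1R15A encodes GADD34, which directs a phosphatase to eIF2 and so ends the response. It took a course of the same shape as DDIT3 with smaller steps, at 3.96, 4.73 and 5.18 CPM at rest, 19.4, 12.8 and 17.5 CPM at 5 h and 11.2, 10.7 and 7.26 CPM at 12 h. No library of 1 group lay within the range of another. The mean at 5 h, 16.6 ± 3.37 CPM, was 3.58 times the resting mean of 4.62 ± 0.617 CPM (log2 fold change 1.83 ± 0.25). At 12 h it was 9.73 ± 2.16 CPM, 2.11 times the resting mean (log2 fold change 1.07 ± 0.26). The step from 5 h to 12 h, -0.76 ± 0.24, was called, but not without 5 h replicate 1 (-0.65), 5 h replicate 3 (-0.69) or 12 h replicate 3 (-0.59). In the log2 change, 69.7% of the 5 h difference from rest stood at 12 h for DDIT3 and 58.4% for PPP1R15A.

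TRIB3 is a pseudokinase that is induced by ATF4 and CHOP and restrains both ATF4 and the kinase AKT. Like ATF4, it had its highest mean at 12 h. It stood at 18.9, 15.1 and 16.8 CPM at rest, 28.5, 16.7 and 25.8 CPM at 5 h and 45.0, 30.4 and 45.2 CPM at 12 h. At 5 h replicate 2 lay within the resting range and the other two above it, and the whole 12 h group lay above both. The mean was 40.2 ± 8.47 CPM at 12 h against 16.9 ± 1.91 CPM at rest, with a log2 fold change of 1.26 ± 0.20. At 5 h the mean was 23.7 ± 6.18 CPM and the log2 fold change over resting, 0.48 ± 0.20, was not called. Without 5 h replicate 2 it was 0.68 and called. TRIB3 rose by 0.78 ± 0.19 on the log2 scale at 12 h relative to 5 h.

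CHAC1, an enzyme that breaks down glutathione and a known target of ATF4 and CHOP, was among the genes lowered most at 5 h. It stood at 33.9, 28.9 and 33.6 CPM at rest, 6.55, 2.85 and 3.31 CPM at 5 h and 12.2, 10.7 and 10.9 CPM at 12 h. The 3 groups were fully apart, in the order 5 h, 12 h, resting from low to high. The mean at 5 h was 4.24 ± 2.02 CPM against 32.1 ± 2.79 CPM at rest, and the log2 fold change was -2.96 ± 0.24. The 5 h mean was lower by a factor of 7.58, and the fold change ranked 9 from the bottom of the 13920 genes tested. By 12 h CHAC1 was at 11.3 ± 0.781 CPM, a log2 fold change of -1.50 ± 0.23 over resting and of 1.46 ± 0.25 over 5 h. CHAC1 was thus called lower than rest at both times, and DDIT3 higher.

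STC2, a secreted glycoprotein induced in stressed cells, and SESN2, a leucine sensor that restrains the growth kinase complex mTORC1, were likewise lowest at 5 h. STC2 stood at 8.97, 7.69 and 12.8 CPM at rest, 1.21, 2.17 and 1.14 CPM at 5 h and 3.94, 4.38 and 3.76 CPM at 12 h. Its groups did not overlap, and its 5 h libraries held as few as 12 counts, so that their sum of 62 has an exact 95% Poisson interval from 47.5 to 79.5. The mean was 1.51 ± 0.578 CPM at 5 h against 9.84 ± 2.68 CPM at rest, a log2 fold change of -2.70 ± 0.38. At 12 h it was 4.03 ± 0.317 CPM, with a log2 fold change over resting of -1.29 ± 0.36 that was not called without resting replicate 3 (-1.06). STC2 rose by 1.40 ± 0.39 at 12 h relative to 5 h.

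SESN2 stood at 16.3, 18.8 and 28.9 CPM at rest, 5.34, 4.27 and 3.69 CPM at 5 h and 11.8, 17.3 and 10.1 CPM at 12 h. Every 5 h library lay below all others, while 12 h replicate 2 reached into the resting range. The mean was 4.44 ± 0.837 CPM at 5 h against 21.3 ± 6.67 CPM at rest, with a log2 fold change of -2.28 ± 0.26. At 12 h it was 13.1 ± 3.77 CPM, a log2 fold change of -0.73 ± 0.25 over resting and of 1.55 ± 0.27 over 5 h. The 12 h difference from resting was called in the fit of all libraries, but not without resting replicate 3 (-0.46), 12 h replicate 1 (-0.67) or 12 h replicate 3 (-0.59). In the log2 change, 50.8% of the 5 h difference from rest stood at 12 h for CHAC1, 47.9% for STC2 and 32.1% for SESN2. At 5 h over rest, STC2 ranked 12 and SESN2 28 from the bottom of all genes tested. For 12 h over 5 h, SESN2 ranked 101, CHAC1 126 and STC2 144 from the top.

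DDIT4, also called REDD1, restrains mTORC1 as SESN2 does but acts through the TSC complex. It stood at 42.5, 34.8 and 42.4 CPM at rest, 40.2, 27.6 and 33.0 CPM at 5 h and 26.4, 33.5 and 30.4 CPM at 12 h. The 12 h libraries lay just below the resting ones, and the 5 h libraries overlapped both. The gap at 12 h rests on the TMM factors. On unscaled totals, resting replicate 2 (317 of 10171929 counts) lay below 12 h replicate 2 (153 of 4343515). The mean was 33.6 ± 6.34 CPM at 5 h against 39.9 ± 4.39 CPM at rest, with a log2 fold change of -0.25 ± 0.15 that was not called. At 12 h it was 30.1 ± 3.53 CPM, with a log2 fold change over resting of -0.42 ± 0.16. That small difference was called, but not without resting replicate 1 (-0.38), resting replicate 3 (-0.38), 5 h replicate 3 (-0.42), 12 h replicate 1 (-0.33) or 12 h replicate 3 (-0.44). It was also not called with DESeq2's size factors in edgeR (-0.41), by DESeq2's Wald test (-0.40), with upper quartile scaling (-0.39) or with the filter of at least 50 counts (-0.34). The change from 5 h to 12 h, -0.17 ± 0.16, was not called. Between the 2 genes that restrain mTORC1, only SESN2 had a called difference from rest at 5 h; the difference between them was not tested.

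ASNS, which makes asparagine and is a classical ATF4 target, was listed at 0 counts in all 9 libraries, and no fold change can be given. If its fragments were countable, 0 counts over the 3 libraries of a group leave room for about 3 counts at a level of 95% (one-sided, counting error only), or 0.110 CPM at rest, 0.0720 CPM at 5 h and 0.127 CPM at 12 h. Whether they were countable is not known, since the regions counted and the treatment of fragments matching several genes are not stated. The 0 is therefore not a measure of absent expression. In all, 378 of the 19569 genes had no count anywhere. Its promoter window printed above is 1 of the 2 that hold the C/EBP-ATF letters, and its other window has no match.

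**Figure D3:**
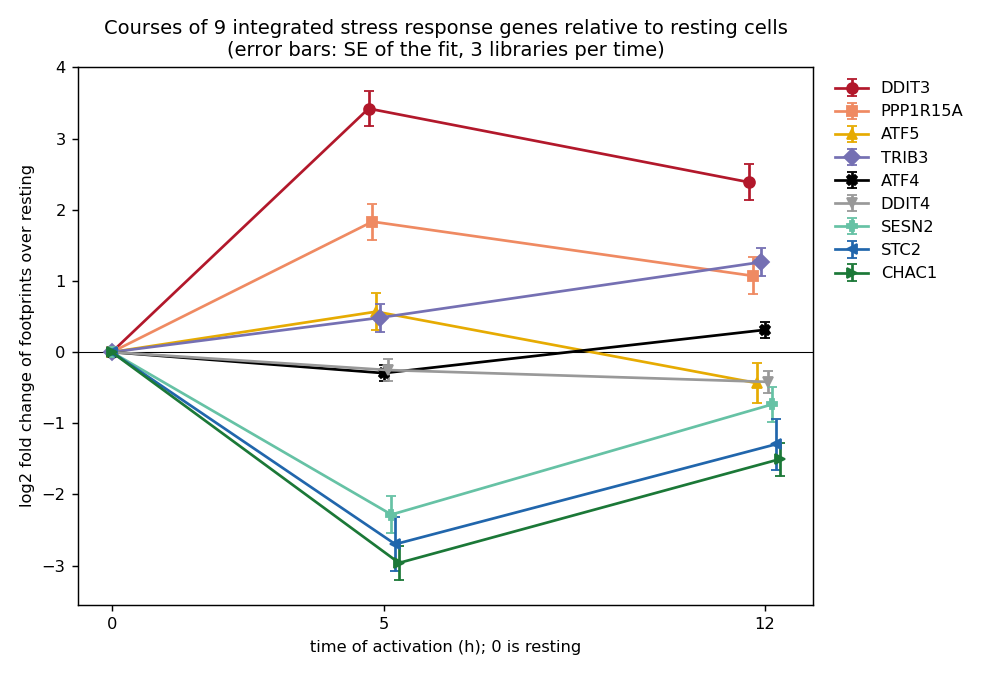
Log2 fold change of footprints over resting cells (vertical axis) against the time of activation in hours (horizontal axis) for 9 genes, with error bars of 1 SE. Points at each time are offset sideways for legibility. DDIT3 reaches 3.42 at 5 h and CHAC1 -2.96, and both are nearer to 0 at 12 h, while TRIB3 goes on to 1.26.

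Counted over the list, 2 of the 9 genes tested were called higher at 5 h than at rest (DDIT3 and PPP1R15A), against 16% of all genes tested. Called lower were 4 (ATF4, CHAC1, SESN2 and STC2), against 18.4% of all genes. After TMM scaling, here and below, the libraries of the 2 groups did not overlap for 7 of the 9, against 45.7% of all genes. At 12 h against rest, 4 were called higher (ATF4, DDIT3, TRIB3 and PPP1R15A; 15.8% of all genes) and 4 lower (CHAC1, SESN2, STC2 and DDIT4; 19.3% of all genes), and 6 did not overlap (45.8% of all genes). At 12 h against 5 h, 5 were called higher (ATF4, CHAC1, TRIB3, SESN2 and STC2; 11.6% of all genes) and 3 lower (DDIT3, ATF5 and PPP1R15A; 13.5% of all genes), and 8 did not overlap (39.1% of all genes). Since the genes were chosen with these comparisons known, nothing is read from the counts. The count lower at 12 h against rest was 1 without resting replicate 3, 2 without 12 h replicate 1 and 2 without 12 h replicate 3, and the count lower at 12 h against 5 h was 1 without 5 h replicate 1.

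The median log2 fold change over the 9 genes was -0.25 at 5 h over rest, beside 0.07 over all genes tested. It was -0.42 at 12 h over rest, beside 0.04, and 0.61 at 12 h over 5 h, beside -0.05. A median says little of this list, because its members ran from -2.96 to 3.42 at 5 h. The comparisons with rest share the resting libraries, so a high or low resting library moves both of a gene's values together.

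**Figure D4:**
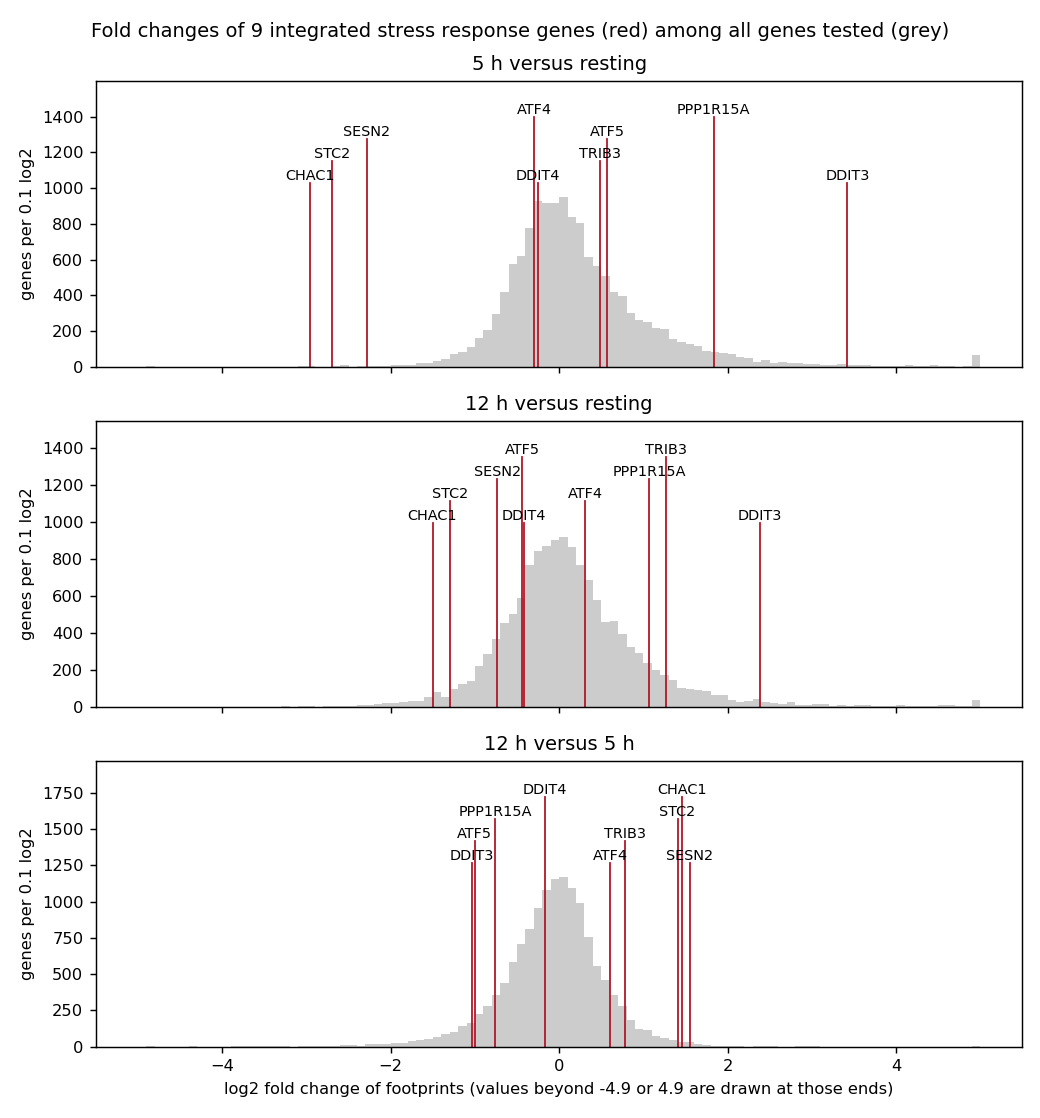
Number of genes per 0.1 of log2 fold change (grey) for all 13920 genes tested in each of the 3 comparisons, with the 9 genes of the list marked by red lines whose height only separates the labels. At 5 h CHAC1, STC2 and SESN2 lie in the far lower tail and DDIT3 in the upper one, and at 12 h against 5 h the first 3 lie in the upper tail.

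Ratios between 2 genes in the same library need no scaling between libraries. They are not per length and serve only to compare libraries. Per 100 ATF4 footprints, resting libraries held 1.59 ± 0.507 of DDIT3, 5 h libraries 20.8 ± 2.88 and 12 h libraries 6.76 ± 2.16 (SD, n = 3 each), with no overlap between the groups. PPP1R15A had 2.66 ± 0.668, 11.4 ± 1.89 and 4.49 ± 1.37 at the same times, and its 12 h range from 3.05 to 5.78 overlapped the resting range from 1.90 to 3.11. The number for TRIB3 was 9.54 ± 0.526 at rest, 16.2 ± 3.69 at 5 h and 18.4 ± 5.05 at 12 h, so that relative to ATF4 all activated libraries lay above all resting ones and the activated groups overlapped.

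The genes that were lower at 5 h stayed lower relative to ATF4 at both times. CHAC1 had 18.2 ± 1.97 footprints per 100 of ATF4 at rest, 2.88 ± 1.22 at 5 h and 5.16 ± 0.962 at 12 h, SESN2 had 12.3 ± 4.80, 3.05 ± 0.453 and 5.93 ± 1.63, and STC2 had 5.62 ± 1.84, 1.05 ± 0.441 and 1.83 ± 0.231. For each of these 3 genes, every activated library lay below every resting one. ATF5 had 4.49 ± 0.979, 8.13 ± 1.72 and 2.68 ± 0.183, with all 3 groups apart, and so lay below its resting ratio at 12 h. DDIT4 had 22.6 ± 2.60 at rest, 23.1 ± 3.26 at 5 h and 13.6 ± 0.864 at 12 h, overlapping at the first 2 times and lower at 12 h. All these ratios share ATF4 as their base, so its own changes enter each of them.

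**Figure D5:**
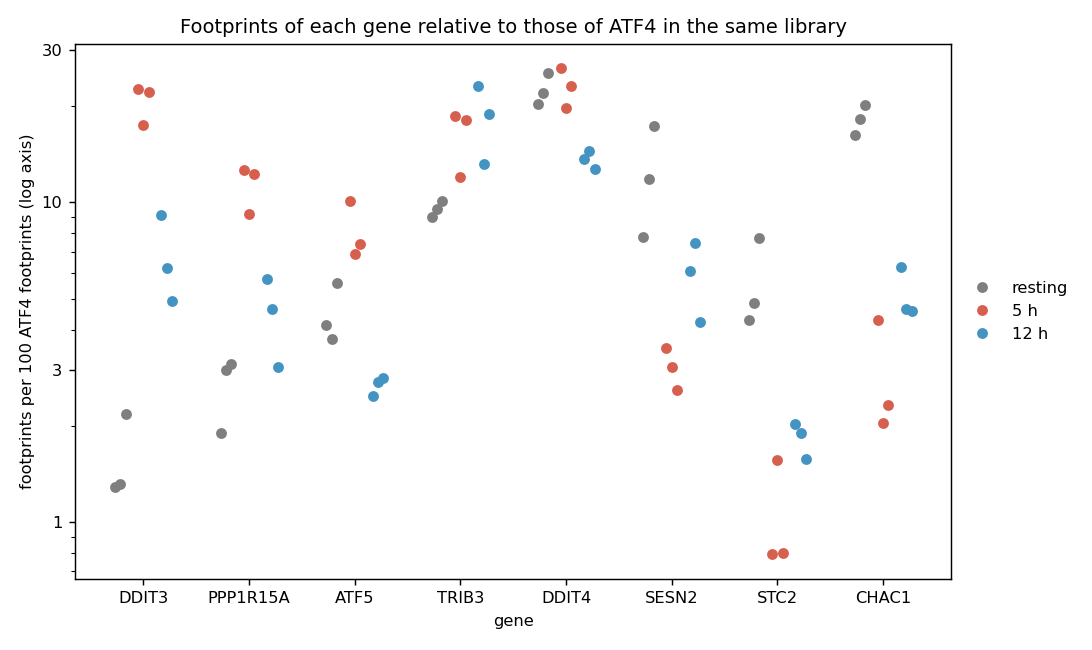
Footprints of 8 genes per 100 ATF4 footprints in the same library (vertical axis, log scale), with 1 point per library, in resting cells and at 5 h and 12 h. The DDIT3 points at 5 h sit between 17.5 and 22.7, above all others of that gene, and the resting points of CHAC1, between 16.2 and 20.2, above all activated ones.

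DDIT3 and CHAC1, whose fold changes over rest had opposite signs, were also set against each other. There were 0.0790, 0.0722 and 0.108 footprints of DDIT3 for each footprint of CHAC1 in the resting libraries, 5.29, 8.55 and 9.57 at 5 h, and 1.46, 1.35 and 1.07 at 12 h. The groups did not overlap, which follows from the levels of each gene given above and adds nothing to them. Every resting library held more counts of CHAC1 than of DDIT3, but counts are not per length and do not compare the levels of these genes.

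Within a group, the same library was often the highest or lowest for the 9 genes, and shares over all genes were not counted. At 5 h, replicate 1 had the highest level for 8 of the 9 genes and replicate 2 the lowest for 7, and among resting libraries replicate 2 had the lowest for 7. At 12 h no library was highest for more than 3. Their part in the results above was not tested beyond leaving each library out. The SD between libraries was largest relative to the mean for CHAC1 at 5 h, where it was 47.6% of the mean against 13.8% from counting alone. For STC2 at 12 h it was 7.87% against 18.7%, so the close values of those 3 libraries are closer than counting error alone would on average give.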

How the data were processed

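The counts per gene in 9 Jurkat libraries are as deposited by the authors, with no normalization. They are called ribosome footprints by name only, since the library protocol describes no footprinting step. Per the submitters' processing notes, cutadapt 3.2, Bowtie, bedtools, RSEM and DESeq2 were used with build GRCh38.p13. The role of each tool, the annotation release, the regions counted and the treatment of fragments matching several genes are unknown here: the sources used name no roles. The authors' deposited log2 table of 11572 genes equals log2 of 1 plus the count divided by a size factor of the library (largest difference 5.03e-09), and served as an alternative.

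The 3 groups come from the sample titles. The counts were fitted with edgeR 4.0.16 in R 4.3.3 using TMM scaling, filterByExpr and the quasi-likelihood test, with Benjamini-Hochberg adjustment over 13920 genes and all 9 libraries in 1 fit. SE is the fold change divided by the square root of the F statistic. The common biological coefficient of variation was 15.6%. The fit was also run on simulated counts with the same spread between replicates for every gene, and no result here rests on that run. Replicate pairs differed by more than counting error in every group, so none was treated as 1 library deposited again.

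The 10 members, and lists of 138 other pathway genes and 27 markers, were chosen with earlier results of these data known. Of the 59792 entries in the gene table used for names, 0 had an Ensembl ID, so these lists, the tests planned on them and the planned search for genes of like course were not analysed here. All 10 members are named in every comparison. Intervals and the floor of 3 counts cover counting error only. Alternatives were other scalings, filters and tools (limma 3.58.1, DESeq2 1.42.0), the 6 libraries compared alone, the replicate number as a block, and leaving out each library.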

Additional observations from a re-analysis of the deposited data

Results flagged for a closer look

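Levels at 12 h differed from those at 5 h, by the direct comparison of the times, for 8 of the 9 genes tested. Of these, 5 were called higher (11.6% of all genes) and 3 lower (13.5% of all genes). The difference, as 12 h minus 5 h on the log2 scale, was 0.61 for ATF4, 0.78 for TRIB3, 1.46 for CHAC1, 1.55 for SESN2 and 1.40 for STC2. It was -1.04 for DDIT3, -1.0 for ATF5 and -0.76 for PPP1R15A. These genes were chosen with this comparison known, so the values are a description. The libraries of the 2 times did not overlap for any of the 8, as for 39.1% of all genes. The calls of ATF5 and PPP1R15A were not kept when single libraries were left out: without 5 h replicate 1 they were at -0.78 and -0.65 and only DDIT3 was called lower. ATF5 also lost its call without 12 h replicate 1 (-0.85), and PPP1R15A without 5 h replicate 3 (-0.69) or 12 h replicate 3 (-0.59). DDIT4, at -0.17, was the member tested for which no such difference was found. Groups of 3 libraries are too small for a check of single outlying libraries.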

How the results depend on the processing

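All 27 fold changes (9 genes in 3 comparisons) kept their sign in each of the 17 alternatives, and 19 kept their call in all of them. Of 459 recomputed values, 1 moved by more than 1 SD: STC2 at 12 h over 5 h was 1.76 without 5 h replicate 2. The 8 fold changes whose call changed were those of ATF4, TRIB3 and, at 12 h over rest, SESN2, STC2 and DDIT4, and of ATF5 and PPP1R15A at 12 h over 5 h. ATF4 is counted at both times. The cause was not tested.

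Leaving out 1 library gave 2 to 3 genes called higher and 3 to 4 lower at 5 h over rest, 3 to 4 higher and 1 to 4 lower at 12 h over rest, and 5 higher in every case and 1 to 3 lower at 12 h over 5 h. With 2 libraries in a group the fit takes the spread from all groups. The other 8 alternatives stayed within 1 gene of each count. TRIB3 at 5 h over rest was called with no filter beyond 1 count (0.47) and with at least 50 counts in 3 libraries (0.53).

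With the replicate block, 3 genes were called higher and 4 lower at 5 h over rest, 4 and 3 at 12 h over rest, and 5 and 3 at 12 h over 5 h: TRIB3 gained a call at 5 h (0.46) and DDIT4 lost one at 12 h (-0.41). The labels give no reason to pair the numbers. Same-numbered libraries of different groups had deviations correlated across genes at -0.06 to 0.09, others at -0.11 to 0.09. Not every library correlated best with its own number. The alternatives planned for lists of other pathway genes were not run, because their IDs could not be paired with names. Depth limits STC2, DDIT3 and ATF5 most, with as few as 12, 19 and 29 counts in a library.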
